A study of Arabidopsis thaliana with 15 samples.

Results

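Leaves of whole Arabidopsis thaliana plants kept in darkness for 6 days were compared with leaves sampled in light before any darkening. The members are all genes that the annotation pairs with a probe set of its own: of 26676 probe sets, 16179 carry exactly 1 gene, which gave 16174 genes compared on 6 of the series' 15 arrays. Of these genes, 1625 carry a symbol and the others are named by their locus code. The darkened plant leaves (DP day 6, 3 arrays) came from Col-0 plants enclosed in dark boxes for 6 days in the growth chamber, at day 6. The DP day 3 leaves (3 arrays) came from the same treatment after 3 days. The IDL day 6 leaves (3 arrays) were fully expanded single leaves under foil-coated covers for 6 days, while the rest of the rosette kept its light and dark cycle. The light leaves (3 arrays) were uncovered leaves of plants at day 0 in short days of 8 h light and 16 h dark at 22 °C. All groups were wild-type Col-0, all leaves were taken at noon, and each biological replicate pooled 2 leaves of independent plants. Light leaves were sampled only at day 0, so darkness and 6 more days of plant age cannot be told apart in the comparison of DP day 6 with light.

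A leaf in the light fixes carbon in the chloroplast, stores part of it as starch and exports sucrose. In prolonged darkness those supplies run out, and leaf cells are known to turn to protein, lipid and chlorophyll as fuel: amino acids such as lysine and the branched chain amino acids can pass electrons to the mitochondrial respiratory chain, and autophagy delivers cell contents to the vacuole for breakdown. Energy shortage is sensed by the kinase SnRK1, which is known to repress growth genes and to raise genes of amino acid breakdown. Single darkened leaves on a lit plant are known to senesce sooner than leaves of plants kept wholly dark.

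The arrays within each group resembled each other closely. Correlations over all genes (log2 intensity, not independent points) were 0.983 among the DP day 6 arrays and 0.983 to 0.987 among the light arrays, and 0.847 to 0.858 between both groups. DP day 6 arrays correlated at 0.973 to 0.979 with DP day 3 and at 0.911 to 0.92 with IDL day 6. Summed over all probe sets, intensity was 1645073 to 1653072 per array in DP day 6 and 1871922 to 1916127 in light, while the median log2 intensity of the genes tested was 3.99 to 4.02 in DP day 6 and 3.97 to 4.0 in light. The part of the summed signal in the results was not tested. The labels describe whole leaves, in which fewer cells of a type and less RNA per cell cannot be told apart. Of the cell type marker lists, only 4 guard cell markers and 1 mesophyll gene were measured, and no vascular or epidermal marker was measured. Among the guard cell markers, SPCH, MUTE and FMA, which drive stomatal development, did not pass the test, with differences of 0.08, 0.08 and 0.17. The listed locus AT1G22690 fell by 2.04 on the log2 scale. The mesophyll gene was RCA, which fell and is described with the Calvin cycle. The part of these markers in the results was not tested.

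Differences are given as log2 intensity in DP day 6 minus log2 intensity in light, with the standard error (SE) of that difference, and a gene was called changed at an adjusted p under 0.05 (limma's moderated test, Benjamini-Hochberg over all 16174 genes, 3 arrays per group). Of the 16174 genes, 6456 were called (39.9%), 3280 higher (20.3%) and 3176 lower (19.6%) in DP day 6. The median difference of all genes was 0.05, with a median SE of 0.13. Among larger changes, 791 genes rose at least 2-fold (4.89%) and 1312 fell at least 2-fold (8.11%), together 13% of the genes. At 4-fold there were 191 rises (1.18%) and 381 falls (2.36%), together 3.54% of the genes, and at 16-fold 18 rises and 25 falls. In 46.8% of all genes the 3 DP day 6 arrays and the 3 light arrays did not overlap. Of the 1625 genes with a symbol, 322 were higher (19.8%) and 468 lower (28.8%), and of the 14549 without one, 2958 were higher (20.3%) and 2708 lower (18.6%).

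**Figure D1:**
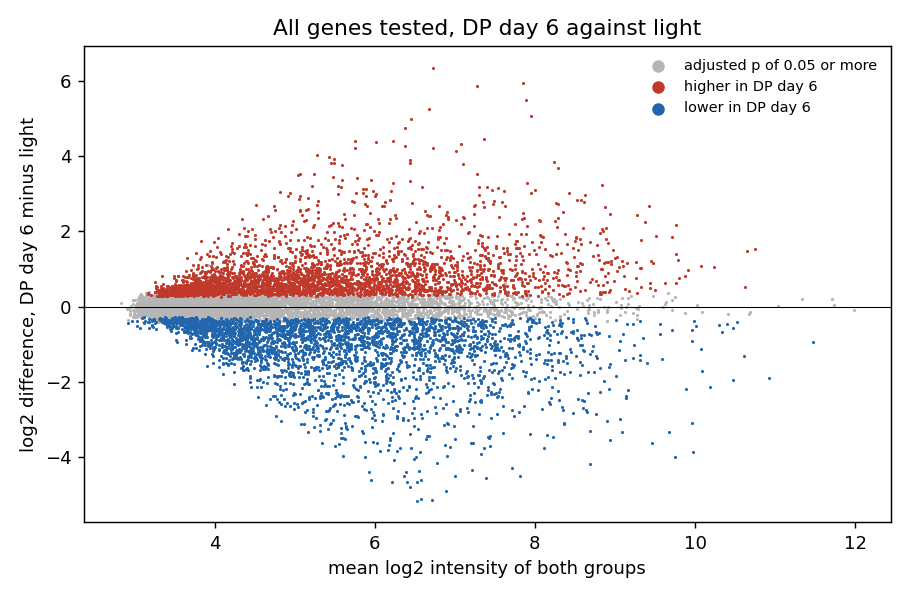
Each point is 1 of 16174 genes; the horizontal axis is the mean log2 intensity of both groups and the vertical axis the log2 difference, DP day 6 minus light. Red points were called higher (3280), blue points lower (3176), and grey points had an adjusted p of 0.05 or more; the largest rise is at least 6.36, that of NAI2, dim in light, and the largest fall -5.16.

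The detection of changes depended on the level. With the genes ranked by mean level over all 15 arrays and divided into 10 equal bins, 40.5% of the brightest bin were called higher and 34.5% lower, against 1.05% higher and 2.66% lower in the dimmest bin. A probe set near the floor of the array shows less than the true change, so a difference is a lower bound on size where a group's mean lies within 0.2 of that group's lower quartile (3.51 in DP day 6 and 3.44 in light, log2) or below it. Such genes are called dim in that group, and no fold is given for them.

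The largest rise belonged to NAI2 (AT3G15950), a protein of ER bodies, which are endoplasmic reticulum compartments that hold defence enzymes. NAI2 had an intensity of 799, 1247 and 879 in DP day 6, against 12.9, 12.3 and 10.04 in light, where it was dim. Its lowest DP day 6 array stood far above its highest light array, and the difference was at least 6.36 ± 0.22 (SE), adjusted p = 1.46e-15. AT2G05540 followed with 1966, 1799 and 1649 in DP day 6, against 26.4, 28.6 and 33.7 in light, a difference of 5.94 ± 0.13 (SE), adjusted p = 3.02e-18. The lysine breakdown gene AT4G33150, which the gene table also names LKR/SDH and which encodes the first enzymes of that pathway, read 1107, 1113 and 1321 in DP day 6 and 19.9, 20.1 and 20.9 in light. The groups did not overlap, and the difference was 5.86 ± 0.13 (SE), adjusted p = 7.88e-18. COR27, a cold-regulated gene whose protein represses clock genes, had 823, 628 and 489 in DP day 6, against 18.1, 17.4 and 14.4 in light, with a spread within DP day 6 that stayed clear of the light arrays (5.26 ± 0.18, SE, adjusted p = 1.28e-15).

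Other rises among the 12 largest came from loci without a symbol. AT4G27450 had 1349, 1636 and 1799 in DP day 6, against 23.7, 42.3 and 44.4 in light (difference 5.48). AT3G15450 read 1355, 1716 and 1286 in DP day 6 and 51.6, 35.7 and 42.02 in light (difference 5.08). Neither gene was dim in either group. AT1G19540, AT5G47590, AT2G20670, AT4G36850, AT4G25580 and AT1G15010 rose by between 4.37 (AT1G15010) and 4.99 (AT1G19540), and AT4G25580 was dim in light. In each of these 12 genes all DP day 6 arrays stood above all light arrays.

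Among genes with a symbol, 3 more completed the 5 largest rises. WES1, an enzyme of the GH3 family that joins amino acids to auxin and salicylate, read 726, 493 and 614 in DP day 6, against 23.4, 40.5 and 29.3 in light (4.32 ± 0.21, SE, adjusted p = 3.74e-13). MGL, methionine gamma-lyase, which cleaves methionine, read 429.9, 418 and 539 in DP day 6, against 28.3, 24.1 and 21.5 in light (4.23 ± 0.15, SE, adjusted p = 1.86e-15). PDF1.4, a plant defensin gene, had 299.7, 134 and 126 in DP day 6, against 10.6, 10.2 and 11.7 in light, where it was dim. The DP day 6 arrays of PDF1.4 spread more widely than those of WES1 and MGL, and its difference was at least 3.99 ± 0.45 (SE), adjusted p = 2.14e-07.

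**Figure D2:**
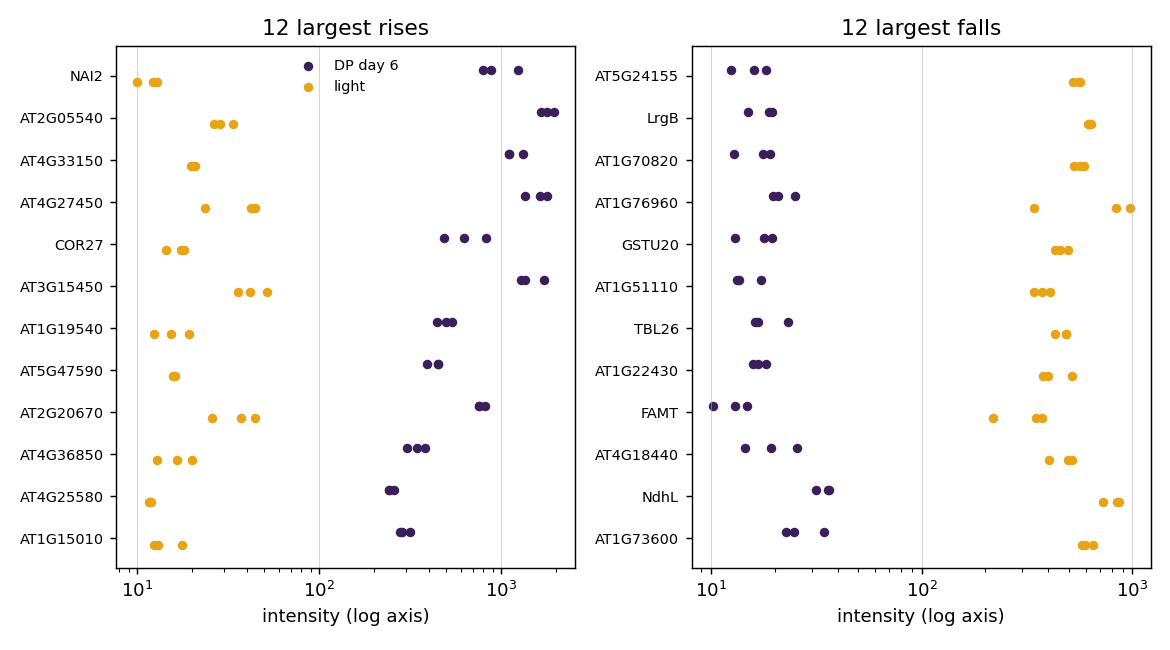
Intensity per array (log axis) of the 12 genes with the largest rises (left) and the 12 with the largest falls (right), with 3 DP day 6 arrays in purple above 3 light arrays in yellow for each gene. No gene shown has an overlap between both groups, and the light arrays of AT1G76960 spread most among the falls.

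The largest fall was that of AT5G24155, with 16.05, 18.2 and 12.5 in DP day 6, against 565, 559 and 523 in light (-5.16 ± 0.14, SE, adjusted p = 4.32e-17). LrgB, the chloroplast carrier that exchanges the photorespiratory metabolites glycolate and glycerate, read 15.01, 18.8 and 19.4 in DP day 6 and 621, 639.8 and 614 in light. The light arrays lay close together, and the difference was -5.15 ± 0.13 (SE), adjusted p = 2e-17. AT1G70820 and AT1G76960 fell by 5.11 and 4.91 on the log2 scale. AT1G76960 varied among the light arrays, with 20.8, 19.7 and 24.98 in DP day 6 and 339.9, 837 and 972 in light, yet the groups stayed apart.

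GSTU20, a glutathione transferase linked to glucosinolate synthesis, had 12.99, 19.5 and 17.8 in DP day 6, against 432, 495 and 454 in light (-4.80 ± 0.16, SE, adjusted p = 8.6e-16). TBL26, of a family whose studied members acetylate cell wall polymers, had 16.6, 23.1 and 16.2 in DP day 6, against 482, 431 and 484 in light (-4.66 ± 0.18, SE, adjusted p = 8.96e-15). FAMT, a methyltransferase that makes methyl farnesoate, read 10.2, 13.03 and 14.8 in DP day 6, where it was dim, and 219, 372 and 349 in light (a fall of at least 4.61). NdhL, a subunit of the chloroplast NDH complex for cyclic electron flow, is described with that complex. The loci without a symbol AT1G51110, AT1G22430, AT4G18440 and AT1G73600 fell by 4.50 (AT1G73600) to 4.67 (AT1G51110) on the log2 scale.

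Every measured gene of the 2 lists for the photosynthetic apparatus was lower in DP day 6. Of the light harvesting and photosystem list, 8 of 42 entries were measured and all 8 fell, with a median difference of -2.18, against 0.05 over all genes, of which 19.6% fell. For every list and family count against light, the shares over all genes were 20.3% higher and 19.6% lower. PSBW, a small photosystem II subunit, read 201, 227 and 216 in DP day 6, against 4651, 2987 and 2905 in light (-3.999 ± 0.15, SE, adjusted p = 6.39e-15). PSAE-1, a stromal subunit of photosystem I, read 332, 228 and 226 in DP day 6 and 2514, 2901 and 2391 in light (-3.33 ± 0.16, SE, adjusted p = 2.77e-13). LHB1B2, an antenna protein of photosystem II, read 195, 160.1 and 160.3 in DP day 6 and 1779.8, 1788 and 1584 in light (-3.32 ± 0.11, SE, adjusted p = 1.65e-15). Members differed in how far they fell: LHCB4.2, LHCB4.3 and LHCB4.1, 3 genes for the same minor antenna protein, fell by 2.52, at least 1.15 and 1.03. LHCB4.3 was dim in DP day 6.

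The electron transport and NDH list had 6 of 28 entries measured, and all 6 fell, with a median of -3.00. NdhL had 31.4, 36.3 and 35.8 in DP day 6, against 729, 849 and 864 in light (-4.56 ± 0.12, SE, adjusted p = 3.09e-17). NdhN and NdhU, subunits of the same complex, fell by 3.59 and 3.51, so all 3 NDH subunits named here fell. ATPC1, the gamma subunit of the chloroplast ATP synthase, read 85.3, 82.7 and 75.2 in DP day 6, against 297, 367 and 299 in light (-1.98 ± 0.12, SE, adjusted p = 7.5e-12). PGRL1B, which takes part in the antimycin-sensitive route of cyclic electron flow, fell by 0.57 and had the smallest change of the list.

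Carbon fixation genes were lower as well. All 4 measured of 23 entries of the Calvin cycle list fell, with a median of -2.57. SBPASE, sedoheptulose-1,7-bisphosphatase, which serves only the regeneration phase of the cycle, read 40.98, 60.8 and 42.8 in DP day 6 and 1139, 987 and 1086 in light (-4.49 ± 0.13, SE, adjusted p = 1.29e-16). RCA, rubisco activase, read 439, 421 and 478 in DP day 6 and 2251, 1910.2 and 1925 in light (-2.18 ± 0.11, SE, adjusted p = 1.04e-12), and PRK, phosphoribulokinase, fell by 1.68. Photorespiration followed with 5 of 5 measured genes lower (of 16 entries, median -2.50): beside LrgB, the listed loci AT1G32470 and AT1G11860 fell by 3.24 and 2.50, and HPR, peroxisomal hydroxypyruvate reductase, fell by 1.14. HPR still read 681, 783 and 722 in DP day 6, against 1666, 1487 and 1660.1 in light, and the groups did not overlap.

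Genes of chlorophyll synthesis fell in 6 of 6 measured cases (of 23 entries, median -1.86). AT1G74470, named geranylgeranyl reductase in the gene table, which makes the phytol tail, read 120.3, 111 and 106 in DP day 6 and 1019, 936 and 947 in light (-3.104 ± 0.11, SE, adjusted p = 1.44e-15). PORB, a light-dependent protochlorophyllide oxidoreductase, read 68.8, 84.7 and 80.6 in DP day 6 and 692, 508 and 572 in light (-2.91 ± 0.13, SE, adjusted p = 9.99e-14). HEME1 and HEME2, uroporphyrinogen decarboxylases, fell by 2.14 and 1.57, and CHLM, which methylates magnesium protoporphyrin, fell by 1.28. From the list of chlorophyll breakdown only 2 of 14 entries were measured, and both fell: NOL, a chlorophyll b reductase, by 0.63 and the listed locus AT1G44000 by 4.28. The other 12 entries were not analysed here.

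**Figure D3:**
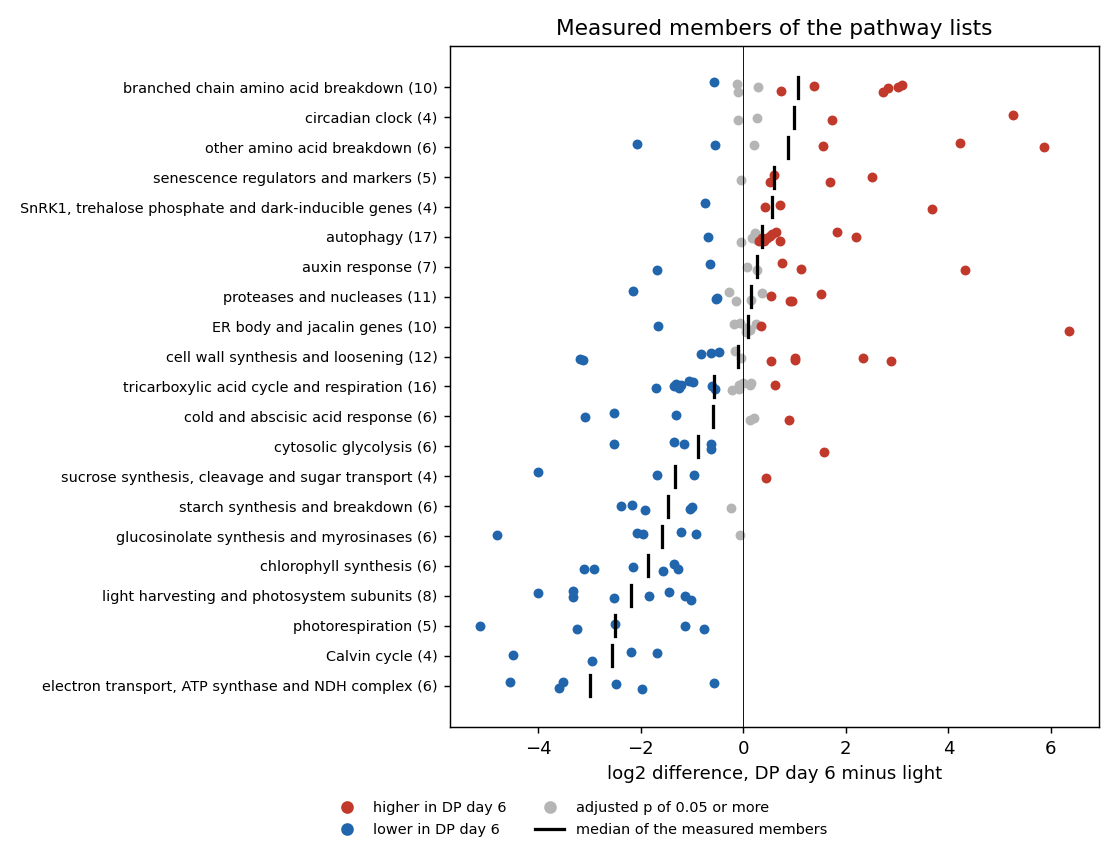
Each point is 1 measured member of a pathway list with at least 4 measured members (number in brackets), on the axis of log2 difference, DP day 6 minus light; red is called higher, blue called lower, grey not called, and the black line is the median. The photosynthesis, photorespiration and chlorophyll synthesis lists lie wholly left of 0 with medians from -1.86 to -3.00, and branched chain amino acid breakdown has the highest median, 1.06.

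Starch genes fell in 5 of 6 measured cases (of 37 entries, median -1.48) and none rose, beside 19.6% of all genes lower. APL3, a large subunit of ADP-glucose pyrophosphorylase, read 16.2, 15.5 and 22.3 in DP day 6, against 81.3, 93.5 and 106 in light (-2.39 ± 0.16, SE, adjusted p = 4.23e-11). DPE1, which acts on short glucan chains in the chloroplast at night, fell by 2.18, and SBE2.2, a starch branching enzyme, by 1.92. AMY1, an alpha-amylase, did not pass the test, with 16.4, 21.5 and 28.7 in DP day 6 and 23.7, 26.1 and 27.1 in light. In sucrose metabolism 3 of 4 measured genes fell and 1 rose. ATSPS4F, a sucrose phosphate synthase, read 21.3, 28.9 and 19.2 in DP day 6, against 325, 361 and 418 in light (-4.01 ± 0.15, SE, adjusted p = 5.54e-15), and SWEET11, a sucrose exporter of the phloem, rose by 0.44.

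In cytosolic glycolysis 5 of 6 measured genes fell and 1 rose (median -0.89). TPI, cytosolic triose phosphate isomerase, read 112, 110.1 and 142 in DP day 6 and 673, 703 and 702 in light (-2.52 ± 0.12, SE, adjusted p = 1.86e-13). The riser was PPDK, pyruvate orthophosphate dikinase, which can turn pyruvate back into phosphoenolpyruvate, with 494, 432 and 451 in DP day 6 and 110.4, 168 and 192 in light (1.58 ± 0.15, SE, adjusted p = 1.24e-08). Of the tricarboxylic acid cycle and respiration list, 16 of 39 entries were measured, 9 fell, 1 rose and 6 did not pass (median -0.58). Over all genes 19.6% fell and 20.3% rose. MAB1, a subunit of mitochondrial pyruvate dehydrogenase, read 206, 208 and 215 in DP day 6 and 589, 526 and 497 in light (-1.36 ± 0.11, SE, adjusted p = 6.69e-10). SDH1-1, the flavoprotein of succinate dehydrogenase, fell by 1.22, and NDC1, an alternative NAD(P)H dehydrogenase, by 1.26. The listed loci AT2G20420 and AT5G65750 marked the ends of the called range, at -1.70 and 0.61.

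Of the branched chain list, 10 of 22 entries were measured, 6 rose, 1 fell and 3 did not pass, with a median of 1.06, against 20.3% of all genes higher. MCCB, the beta subunit of 3-methylcrotonyl-CoA carboxylase in leucine breakdown, read 504, 488 and 565 in DP day 6 and 58.5, 58.6 and 63.8 in light (3.104 ± 0.14, SE, adjusted p = 1.09e-13). ETFQO, which passes electrons from these oxidations to ubiquinone, read 1001, 888 and 1039 in DP day 6 and 132, 111 and 120.0 in light (3.01 ± 0.13, SE, adjusted p = 8.2e-14). ETFALPHA, the alpha subunit of the electron transfer flavoprotein that hands electrons to ETFQO, had 19.7, 18.5 and 18.9 in DP day 6 and 18.6, 19.7 and 23.3 in light, and the groups overlapped (adjusted p = 0.533). ALDH6B2, methylmalonate semialdehyde dehydrogenase of valine breakdown, read 1007, 887 and 1052 in DP day 6 and 121, 132 and 163 in light (2.83 ± 0.13, SE, adjusted p = 9.74e-14). The listed locus AT1G21400 rose by 2.73, and D2HGDH, D-2-hydroxyglutarate dehydrogenase, rose by 0.74.

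Other amino acid breakdown genes went both ways: of 6 measured, 3 rose and 2 fell (median 0.88). Beside AT4G33150 and MGL, DELTA-OAT, ornithine aminotransferase, rose, with 398, 365 and 361 in DP day 6 and 121, 126 and 136 in light (1.55 ± 0.11, SE, adjusted p = 8.51e-11). URE, urease, fell by 0.56 and the listed locus AT5G36160 by 2.07. In purine breakdown, ALN, allantoinase, read 41.2, 42.4 and 35.7 in DP day 6 and 75.99, 66.1 and 75.7 in light and fell by 0.87, while AAH, allantoate amidohydrolase, did not pass. UGLYAH, ureidoglycine aminohydrolase, which acts after AAH and was named for its change of at least 4-fold, fell by 2.69. Of 3 lipid breakdown genes, SDP1, the main triacylglycerol lipase of seedlings, rose by 1.39, with 135, 151 and 147 in DP day 6 and 49.1, 54.5 and 62.2 in light. AIM1, a peroxisomal beta-oxidation enzyme, fell by 0.54. ICL, isocitrate lyase of the glyoxylate cycle, rose by at least 0.37 and was dim in light. Its adjusted p of 0.0203 became 0.111 without DP day 6 replicate 1, 0.0983 without light replicate 1 and 0.0593 under quantile normalization.

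Autophagy genes rose in 10 of 17 measured cases (of 42 entries), 1 fell and 6 did not pass, with a median of 0.37. Over all genes 20.3% rose and 19.6% fell. The ATG8 proteins, small ubiquitin-like proteins that are joined to the lipid of the forming autophagosome, made up 9 of the 17 measured members. ATG8B read 128, 128 and 129 in DP day 6, against 23.5, 28.3 and 32.7 in light (2.201 ± 0.12, SE, adjusted p = 1.67e-12). ATG8E read 123, 101 and 119 in DP day 6 and 30.1, 36.00 and 31.1 in light (1.82 ± 0.13, SE, adjusted p = 1.35e-10). The other ATG8 genes that rose (ATG8H, APG8A, ATG8D, ATG8G and APG8H) did so by 0.37 (APG8H) to 0.71 (ATG8H), and ATG8C and ATG8F did not pass. ATG3, the E2-like enzyme that joins ATG8 to lipid, rose by 0.41 and AT5G66930, the kinase complex subunit ATG101, by 0.31. The listed locus AT3G61960 was the fall, at -0.69.

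Proteases went both ways: of 11 measured, 4 rose, 3 fell and 4 did not pass (median 0.16). The listed locus AT4G16190 rose most, with 2636, 3232 and 2927 in DP day 6 and 923, 1044 and 1095 in light (1.52 ± 0.11, SE, adjusted p = 3.39e-10). BETA-VPE, a vacuolar processing enzyme best known from seeds, fell to 14.95, 17.3 and 16.2 in DP day 6, against 58.4, 83.8 and 75.4 in light (-2.15 ± 0.15, SE, adjusted p = 9.89e-11). GAMMA-VPE, the form of vegetative tissue, did not pass, with 1081, 819 and 881 in DP day 6 and 482, 794 and 957 in light. The 32 measured serine carboxypeptidase-like genes, a family of vacuolar and secreted proteins, included 13 falls and no rise (beside 19.6% of all genes lower), with a median of -0.15. The largest falls there were scpl35 by 3.01 and scpl29 by 2.03.

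Of the senescence list 5 of 35 entries were measured, 4 rose and 1 did not pass (median 0.60). WRKY22, a transcription factor known from dark-induced senescence, read 89.7, 97.9 and 93.5 in DP day 6, against 16.99, 16.3 and 15.97 in light (2.51 ± 0.14, SE, adjusted p = 3.4e-12). EIN3, a transcription factor of ethylene signalling, read 826, 825 and 941 in DP day 6, against 262, 257 and 282 in light (1.69 ± 0.11, SE, adjusted p = 3.91e-11). WRKY6 rose by 0.60, with 74.8, 54.6 and 40.4 in DP day 6 and 35.1, 36.8 and 36.5 in light, but its adjusted p of 0.0197 became 0.156 without DP day 6 replicate 1. SAG29, a marker of late senescence and a sugar carrier, was dim in both groups and did not pass, with 11.9, 12.5 and 9.78 in DP day 6 and 12.3, 10.4 and 12.6 in light.

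Of 4 measured genes of the SnRK1 and dark-inducible list, 3 rose and 1 fell (median 0.57). AKINBETA1, a regulatory beta subunit, read 1096, 1129.5 and 1138 in DP day 6 and 74.2, 94.3 and 94.5 in light (3.69 ± 0.12, SE, adjusted p = 5.29e-16). The listed locus AT2G28060 rose by 0.42 and AT4G16360 fell by 0.75. BZIP53, a transcription factor that activates amino acid breakdown genes in energy shortage, rose by 0.72. Among clock genes COR27 and the listed locus AT4G33980 rose (AT4G33980 by at least 1.72, since it was dim in light), and GI, an evening gene, did not pass, with 266, 373 and 347 in DP day 6 and 355, 341 and 359.9 in light. PIF7, a phytochrome-interacting factor, fell, with 16.8, 18.7 and 23.6 in DP day 6 and 128, 113 and 80.2 in light (-2.43 ± 0.16, SE, adjusted p = 4.32e-11). HYH, a bZIP factor that promotes light responses, fell by at least 0.50 and was dim in DP day 6.

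Hormone genes gave mixed values. Of 7 measured auxin response genes 3 rose and 2 fell (median 0.26): beside WES1, GH3.17 rose by at least 1.12 and IAA18 by 0.76, while IAA29, an auxin-responsive repressor, fell by at least 1.68. GH3.3 fell by 0.64 with overlapping arrays, 15.9, 15.8 and 15.3 in DP day 6 and 15.1, 35.04 and 27.6 in light, and its adjusted p of 0.0233 became 0.188 without light replicate 2, 0.0894 without light replicate 3, 0.0521 without DP day 6 replicate 2 and 0.0621 without DP day 6 replicate 3. RR16, a cytokinin response regulator, was called lower by 0.63 with overlapping arrays, 22.3, 51.7 and 60.9 in DP day 6 and 76.05, 60.4 and 56.6 in light. Its adjusted p of 0.045 became 0.431 without DP day 6 replicate 1, 0.16 without light replicate 1 and 0.0686 without light replicate 2. It was also 0.132 after quantile normalization, 0.0879 with an intensity trend and robust prior in limma, and 0.0939 in a fit of the 2 groups alone.

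The cold and abscisic acid list had 6 measured genes, of which 3 fell and 1 rose (median -0.59). COR15A, a chloroplast protein that protects membranes in frost, read 405, 309 and 317.1 in DP day 6, against 3159, 2888 and 2709 in light (-3.09 ± 0.21, SE, adjusted p = 9.73e-11). COR15B, its neighbour in the genome, fell by at least 2.53, and KIN2 fell by 1.31. COR47, a dehydrin, rose by 0.89, with 412, 353 and 396 in DP day 6 and 201, 229 and 197 in light. Of 10 measured ER body and jacalin genes 2 rose and 1 fell. PYK10, the main ER body glucosidase of roots, was dim in both groups and did not pass, and JAL23, of the jacalin lectin family, fell by 1.66. NAI1, the transcription factor that controls ER bodies, was called higher by at least 0.34 but was dim in both groups, with 12.2, 12.7 and 12.1 in DP day 6 and 10.2, 9.60 and 9.44 in light. Its adjusted p of 0.0224 became 0.0634 without DP day 6 replicate 2, 0.0597 without light replicate 2, 0.0671 without light replicate 3 and 0.0643 under quantile normalization.

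Glucosinolate genes fell in 5 of 6 measured cases (of 38 entries, median -1.59), beside 19.6% of all genes lower. Beside GSTU20, UGT74B1, which adds glucose to the glucosinolate precursor, read 15.97, 17.9 and 19.05 in DP day 6 and 39.4, 44.05 and 39.5 in light (-1.22 ± 0.11, SE, adjusted p = 4.65e-09). The transporters GTR1 and GTR2, which load glucosinolates into the phloem, fell by 1.96 and 0.92. Of 3 sulfur assimilation genes, SIR, sulfite reductase, and APS3, an ATP sulfurylase, fell by 2.13 and 2.34, and APS4 did not pass, with a difference of 0.23. In flavonoid synthesis UGT78D1 fell by at least 0.64, and DFR and UGT78D2 did not pass.

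Cell wall genes rose in 5 and fell in 5 of 12 measured cases (median -0.11), with opposite changes inside the same families. EXPA8, an expansin, which loosens walls, read 17.7, 25.7 and 19.1 in DP day 6, against 225, 180.3 and 164 in light (-3.20 ± 0.16, SE, adjusted p = 4.68e-13). EXPA16 rose, with 55.8, 61.97 and 51.4 in DP day 6 and 38.3, 28.8 and 20.04 in light (1.00 ± 0.21, SE, adjusted p = 0.000458). Among xyloglucan transferases, which cut and rejoin wall glycans, XTH33 rose by at least 2.87, with 114, 84.8 and 75.9 in DP day 6 and 14.5, 8.55 and 14.97 in light, where it was dim. XTH32 fell by at least 3.13, with 11.8, 11.9 and 10.5 in DP day 6, where it was dim, and 109, 145 and 62.5 in light. Over the family, 4 of 10 rose and 1 fell; of 18 expansins, 5 rose and 5 fell. EXO, known from brassinosteroid-promoted growth, rose by at least 2.33.

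For families of genes recognised by their symbols, counts are given beside 20.3% higher and 19.6% lower over all genes. The part of the members' levels in these counts was not tested. Of 52 glycosyltransferases of the UGT class, 11 rose and 12 fell; UGT73B1 rose most, with 167, 254 and 145 in DP day 6 and 24.5, 19.1 and 22.2 in light (3.07 ± 0.18, SE, adjusted p = 4.73e-12), and UGT71C4 fell most, by 1.405. Of 24 measured cytochromes P450, most of them of the CYP71B subfamily, 2 rose and 4 fell. Of 15 glutathione transferases, which join glutathione to many compounds, 2 rose and 6 fell. GSTF3, dim in light, read 76.6, 102 and 67.4 in DP day 6 and 11.4, 8.78 and 9.27 in light (at least 3.05 ± 0.22 (SE), adjusted p = 2.08e-10). GSTL3 read 234, 173 and 165 in DP day 6 and 1456, 1527 and 1539 in light (-3.00 ± 0.14, SE, adjusted p = 1.5e-13). Of 16 sugar carriers of the SWEET family, 6 rose and 2 fell, with the falls in SWEET17, a vacuolar fructose carrier, by 2.89 and SWEET13, a sucrose carrier, by 2.72. The grouping also covered STP sugar carriers, but none was measured. SWEET2, a vacuolar carrier, rose by 0.95. SWEET16 rose by 0.53, with an adjusted p of 0.00974 that became 0.0824 without DP day 6 replicate 1 and 0.0575 without light replicate 3.

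Transcription factor families were measured in part, and their counts stand beside 20.3% higher and 19.6% lower over all genes. Of 23 bZIP genes 8 rose and 3 fell; the locus AT2G40620 rose by 1.16, and BZIP60, a factor of the unfolded protein response, by 0.73. Of 9 bHLH genes 3 rose and 2 fell: bHLH121, which takes part in the response to iron supply, read 736, 713 and 616 in DP day 6 and 306, 302 and 260.1 in light (1.249 ± 0.11, SE, adjusted p = 7.4e-09), and bHLH115, a factor of the same response, read 15.4, 17.97 and 15.9 in DP day 6 and 63.6, 51.5 and 62.6 in light (-1.85 ± 0.12, SE, adjusted p = 1.67e-11). Of 7 WRKY genes 2 rose and 2 fell, WRKY20 by 0.97 among the falls. PHV, a homeobox factor of leaf polarity, rose, with 216, 204 and 233 in DP day 6 and 54.7, 45.1 and 52.6 in light (2.103 ± 0.12, SE, adjusted p = 5.4e-12). None of the 3 heat shock protein genes measured passed the test.

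A further grouping, by the shared stem of the symbols, was chosen after the data and the annotation had been seen. Its counts stand beside 20.3% higher and 19.6% lower over all genes. Of 22 BGLU beta-glucosidases 2 rose and 7 fell, led by BGLU16 with a rise of 1.91 and BGLU44 with a fall of 3.31. Of 23 TBL genes 3 rose and 8 fell. Of 11 CLE signalling peptides 1 rose and 5 fell, and CLE41, a peptide of vascular stem cells, fell by 2.08. Of 17 IQD genes, for calmodulin-binding scaffold proteins, 4 rose and 6 fell.

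All genes with a symbol that changed at least 4-fold were also grouped, a choice made after their values had been seen: 31 rose (1.91% of 1625) and 87 fell (5.35%). Over all genes, with or without a symbol, 1.18% rose and 2.36% fell at least 4-fold. Among the risers, OBE1, a PHD finger protein needed for meristems, read 375, 364 and 438 in DP day 6 and 65.4, 57.7 and 56.6 in light (2.71 ± 0.12, SE, adjusted p = 1.09e-13). Its paralogue OBE2 read 134, 159 and 178 in DP day 6 and 31.2, 36.01 and 33.3 in light (2.22 ± 0.14, SE, adjusted p = 3.06e-11). HON4, which has a linker histone domain, read 1085, 1236 and 1127 in DP day 6 and 219, 203 and 206 in light (2.46 ± 0.11, SE, adjusted p = 1.09e-13), and HIS1-3, a stress-induced linker histone, rose by 2.45. FHL, which carries phytochrome A into the nucleus, read 92.8, 81.5 and 119 in DP day 6 and 19.7, 17.9 and 24.5 in light (2.23 ± 0.15, SE, adjusted p = 6.45e-11). ALDH7B4, a stress-responsive aldehyde dehydrogenase, read 1211, 1009.7 and 1111 in DP day 6 and 116, 147 and 167 in light (2.97 ± 0.13, SE, adjusted p = 4.02e-14). ARL, which promotes cell expansion in lateral organs, EXLA1, an expansin-like gene, and the ubiquitin ligase gene ATL8 rose by 2.79, 2.84 and at least 2.68.

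Among the falls of at least 4-fold, FIB, a plastoglobule fibrillin, read 86.4, 102 and 101 in DP day 6, against 2005, 1752 and 1547 in light (-4.19 ± 0.18, SE, adjusted p = 4.5e-14). TROL, which tethers ferredoxin-NADP reductase to the thylakoid, read 551, 599 and 522 in DP day 6 and 2811, 2248 and 2293 in light (-2.13 ± 0.11, SE, adjusted p = 1.47e-12). FTSZ2-2, of the chloroplast division ring, read 13.2, 13.7 and 12.98 in DP day 6 and 183, 158 and 159 in light (-3.64 ± 0.11, SE, adjusted p = 2.92e-16). The thioredoxins TRXF2 and ty2 fell by 2.96 and 2.36, GrxC5, a chloroplast glutaredoxin, by 3.26, TAPX, the thylakoid ascorbate peroxidase, by 2.81, and CaS, a thylakoid calcium-sensing protein, by 3.59. HCF101, an iron-sulfur assembly factor for photosystem I, CRR42, an NDH assembly factor, TAAC, a thylakoid nucleotide carrier, and CLPP4, a subunit of the plastid Clp protease, fell by 3.03, 2.81, 2.91 and 2.27. LIL3:1 and LIL3:2, which hold geranylgeranyl reductase on the membrane, fell by at least 2.36 and by 2.21.

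Also among these falls, TRY, an inhibitor of trichome formation, read 16.8, 16.9 and 17.2 in DP day 6 and 124, 178 and 139 in light (-3.097 ± 0.15, SE, adjusted p = 2.06e-13), and SNZ, an AP2-type repressor of flowering, fell by 2.75. AGO7, an Argonaute protein for trans-acting small RNAs, read 22.97, 21.3 and 21.5 in DP day 6 and 118, 118 and 106 in light (-2.38 ± 0.12, SE, adjusted p = 9.32e-13). RAPTOR2, a partner of the growth kinase TOR, read 22.3, 15.7 and 24.1 in DP day 6 and 77.3, 93.7 and 94.8 in light (-2.12 ± 0.16, SE, adjusted p = 2.7e-10). WLIM2a, an actin-bundling protein, and TUB5, a beta-tubulin, fell by 3.44 and 2.06. The endoglucanase-family genes GH9C2 and GH9B7 fell by 4.36 and 3.51, and PMEAMT, a methyltransferase of phosphocholine synthesis, by 3.82.

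Between DP day 6 and DP day 3, 738 genes were called (4.56%), 328 higher (2.03%) and 410 lower (2.53%) in DP day 6, and 71 of them changed at least 2-fold (0.439%), 27 higher (0.167%) and 44 lower (0.272%). The count was 420 without DP day 6 replicate 2 and 441 without DP day 3 replicate 1. Of the 738, 44.4% were higher in DP day 6, against 62.9% after centring the arrays on the reference genes. DP day 6 arrays enter both this comparison and the one with light. The photosystem genes were lower again: 5 of the 8 measured fell against DP day 3 and none rose, beside 2.53% of all genes lower. LHB1B2 read 195, 160.1 and 160.3 in DP day 6, against 528, 545 and 483 in DP day 3 (-1.60 ± 0.11, SE, adjusted p = 5.29e-08). PSBW read 201, 227 and 216 in DP day 6 and 574, 671 and 664 in DP day 3 (-1.56 ± 0.15, SE, adjusted p = 2.07e-06), and PSAE-1 differed by -1.51. NdhL, SBPASE and LrgB did not pass between these days, with differences of -0.21, -0.30 and 0.00. Of the 10 branched chain and the 17 autophagy genes measured none was called. With 4.56% of all genes called, such small lists would hold few calls in any case. NAI2 rose further, with 799, 1247 and 879 in DP day 6 and 590.0, 296 and 556 in DP day 3 (1.06 ± 0.22, SE, adjusted p = 0.00543), as did GSTF3 (1.246).

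**Figure D4:**
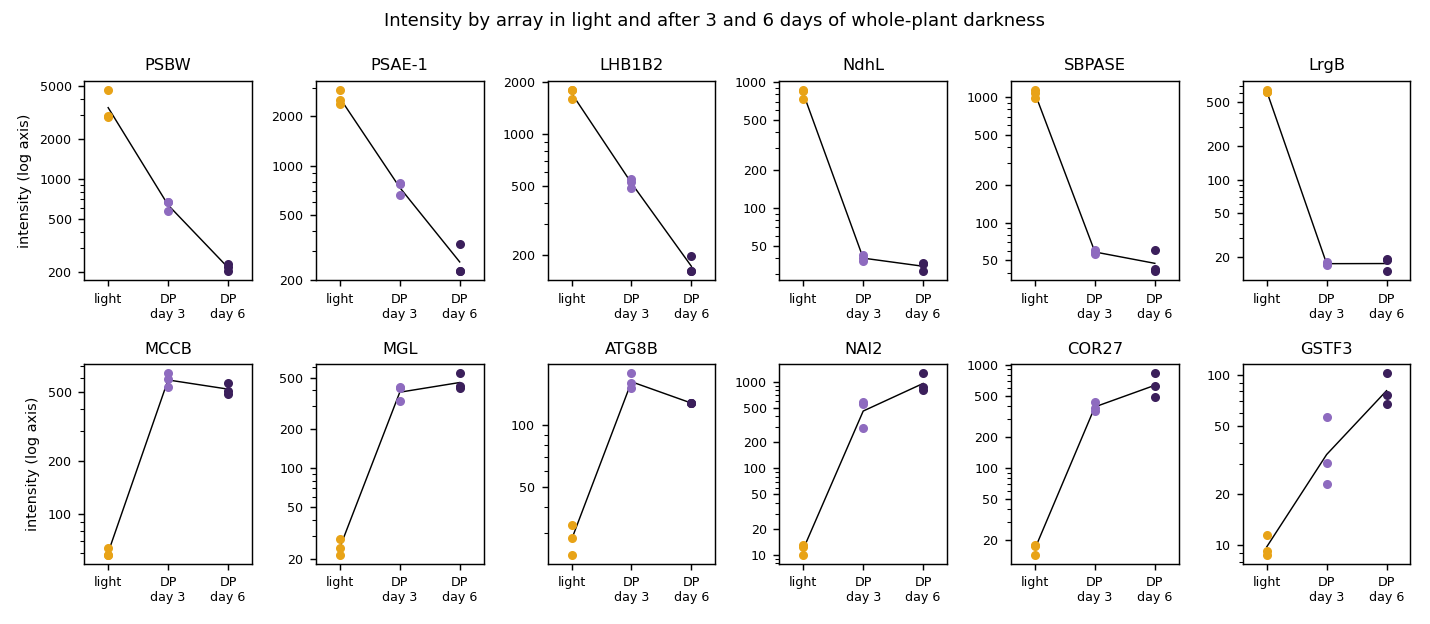
Intensity per array (log axis) in light, DP day 3 and DP day 6 for 12 genes, with the line through the group means on the log2 scale. PSBW, PSAE-1 and LHB1B2 are lower at day 6 than at day 3, whereas NdhL, SBPASE, LrgB, MCCB, MGL and ATG8B differ by at most 0.34 on the log2 scale between these days.

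The largest differences between DP day 6 and DP day 3 were in loci without a symbol. AT2G39850 read 26.6, 21.98 and 61.2 in DP day 6, against 279.7, 235 and 261 in DP day 3 (-2.97 ± 0.24, SE, adjusted p = 1.7e-07), and the DP day 6 arrays, though spread, stayed below those of DP day 3. AT5G02540, AT1G66100, AT5G48900 and AT3G16670 were lower by 1.69 (AT3G16670) to 1.81 (AT5G02540). AT5G02540 and AT5G48900 were lower in DP day 6 than in light too, by 0.66 and 0.93, while their DP day 3 arrays stood above those in light. AT5G02540 had 26.8, 29.2 and 21.2 in light, 56.6, 49.00 and 64.9 in DP day 3 and 16.4, 14.4 and 17.7 in DP day 6. AT5G48900 had 59.3, 56.5 and 44.1 in light, 106, 78.3 and 88.8 in DP day 3 and 30.4, 24.2 and 29.05 in DP day 6. Among the rises, AT1G54870 read 55.9, 26.5 and 53.5 in DP day 6, against 10.8, 11.4 and 17.3 in DP day 3 (at least 1.74 ± 0.22 (SE), adjusted p = 7.02e-05), since it lay near the floor in DP day 3. AT1G63570, AT3G46370 and AT5G66440 rose by 1.60 (AT5G66440) to 1.62 (AT1G63570). AT3G46370 was still lower in DP day 6 than in light, by 0.97. It had 278, 373 and 346 in light, 51.0, 56.9 and 57.7 in DP day 3 and 130, 219 and 169 in DP day 6. AT1G65500 rose by 1.57, with 179, 47.7 and 55.9 in DP day 6 and 25.4, 36.6 and 19.6 in DP day 3; its adjusted p of 0.0115 became 0.052 without DP day 6 replicate 1, 0.0672 without DP day 3 replicate 3 and 0.0941 with an intensity trend and robust prior. Its DP day 6 replicate 1 stood above the other arrays of that group.

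After the same 6 days, DP leaves differed from IDL leaves in 4699 genes (29.1%), 2249 higher (13.9%) and 2450 lower (15.1%) in DP day 6, and 1115 of them changed at least 2-fold (6.89%), 463 higher (2.86%) and 652 lower (4.03%). In 40.8% of all genes the arrays of these groups did not overlap. NAI2 read 799, 1247 and 879 in DP day 6, against 14.3, 20.6 and 19.6 in IDL day 6 (5.74 ± 0.22, SE, adjusted p = 5.19e-14). AT5G19190 read 256, 268 and 282 in DP day 6, against 11.6, 13.6 and 11.4 in IDL day 6, a difference of at least 4.46. AT5G16030 read 270.1, 228 and 238 in DP day 6, against 9.54, 12.1 and 13.5 in IDL day 6, a difference of at least 4.40. Both loci lay near the floor in IDL day 6. AT5G44020 and AT1G28100 were higher in DP day 6 by 4.35 and 4.04. On the other side AT1G07400 read 21.7, 17.01 and 19.2 in DP day 6, against 711, 702 and 737 in IDL day 6 (-5.22 ± 0.23, SE, adjusted p = 4.45e-13). PAP20, of the purple acid phosphatase family, read 11.8, 13.8 and 15.6 in DP day 6 and 313, 282 and 409 in IDL day 6 (-4.60 ± 0.17, SE, adjusted p = 5.19e-14), and AMY1 read 16.4, 21.5 and 28.7 in DP day 6 and 422, 445 and 440.3 in IDL day 6 (-4.33 ± 0.23, SE, adjusted p = 5.72e-12). AT5G28237 and AT1G28650 were lower by 4.53 and 4.36. Between DP day 6 and light, AT5G19190, AT1G07400 and AMY1 did not pass, with differences of 0.34, -0.19 and -0.24. AT5G16030, AT5G44020, AT5G28237 and AT1G28650 were higher than in light by 0.74, 0.78, 0.695 and at least 0.68. AT1G28100 was higher than in light by 2.65.

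**Figure D5:**
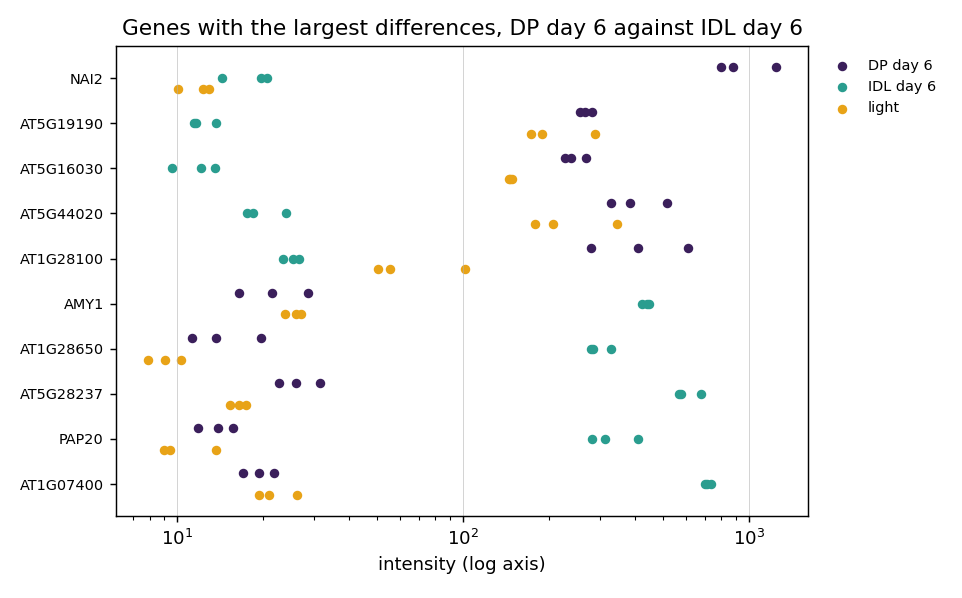
Intensity per array (log axis) in DP day 6 (purple), IDL day 6 (green) and light (yellow) for the 10 genes with the largest differences between DP day 6 and IDL day 6. The 5 upper genes are higher and the 5 lower genes lower in DP day 6 than in IDL day 6, with no overlap between these groups; AMY1 had 16.4, 21.5 and 28.7 in DP day 6, 422, 445 and 440.3 in IDL day 6 and 23.7, 26.1 and 27.1 in light.

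Of 17 autophagy genes 12 were lower and none higher in DP day 6 than in IDL day 6, with ATG8H at -1.94 and APG8A at -1.61. Over all genes 15.1% were lower and 13.9% higher in this comparison. Of 16 tricarboxylic acid cycle and respiration genes 11 were lower and 1 higher. All 5 photorespiration genes measured were higher in DP day 6, HPR by 1.85, as were 4 of 6 chlorophyll synthesis genes, CHLM by 1.60. The Calvin cycle list was divided, with 2 of 4 measured genes higher, among them PRK, and 1 lower, RCA. PRK read 103, 86.2 and 113 in DP day 6, against 18.2, 14.8 and 18.01 in IDL day 6 (2.57 ± 0.14, SE, adjusted p = 5.72e-12). Of 8 light harvesting and photosystem genes 2 were higher and 3 lower. Of 6 electron transport and NDH genes 2 were higher and 1 lower. The branched chain list was divided, with 4 higher and 3 lower, and the cell wall list had 6 higher and none lower. The rosette of IDL day 6 plants was in light and that of DP day 6 plants was not, and the covering also differed (leaf covers against dark boxes), so these cannot be told apart.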

How the data were processed

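Per the labels, total RNA of leaves was labelled and hybridised to 15 Affymetrix arrays. The authors deposited a linear intensity for every probe set on every array. Per the submitters' processing notes oligo was used, and for its version, background correction and normalization nothing is given in the sources used here. The deposited intensity was converted to log2. Where a gene had more than 1 probe set (5 genes) the brightest was kept. Names came from the RefSeq table of TAIR10.1 (16067 of 16179 probe sets matched). No dim gene was left out and no detection calls were used.

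All 15 arrays were fitted together in limma 3.58.1 (R 4.3.3) with a mean per group (10 residual and 10.52 prior degrees of freedom). Replicates are pools of 2 leaves, so p-values measure the spread between such pools, and 3 arrays per group limit the precision. The test was checked on simulated data in which a small part of the genes was given known changes. Of 1.5-fold changes, 50% were recovered against light, 40% against DP day 3 and 56% against IDL day 6. Of 2-fold changes, 88%, 98% and 94% were recovered. A gene that did not pass can therefore still have a small change. Named genes were the 12 largest rises and falls among called genes without overlap, the 5 largest each way with a symbol, up to 3 called members each way of each list and 2 of each family, and the 5 largest each way against DP day 3 and IDL day 6; other members named were chosen after their values were seen. The 35 lists (191 of 831 entries, 23.0%, measured) and the 20 families by name were chosen with earlier results of these data known, as was the comparison itself. The nitrogen assimilation, vascular and epidermis lists, and 6 families, had no measured member. The results of some gene families are not reported here. The replicate numbers were not taken as pairs: same-numbered arrays of DP day 6 and light correlated at -0.078 to -0.014 in their deviations from the group means. Alternatives were other thresholds, centring, normalization, priors, probe set rules, fits of 2 groups, the replicate block and leaving out each array.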

Additional observations from a re-analysis of the deposited data

Results flagged for a closer look

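The change from light differed between DP day 6 and DP day 3, and between DP day 6 and IDL day 6, by the test of the difference itself. Between DP day 6 and DP day 3, 738 genes differed, and between DP day 6 and IDL day 6, 4699 genes differed. The day comparison was led by AT1G54870 (at least 1.74, log2, since it lay near the floor in DP day 3), AT1G63570 (1.62), AT3G46370 (1.61), AT5G66440 (1.60) and AT1G65500 (1.57) on the higher side of DP day 6, and by AT2G39850 (-2.97), AT5G02540 (-1.81), AT1G66100 (-1.77), AT5G48900 (-1.70) and AT3G16670 (-1.69) on the lower side. The comparison with IDL day 6 was led by NAI2 (5.74), AT5G19190 (at least 4.46), AT5G16030 (at least 4.40), AT5G44020 (4.35) and AT1G28100 (4.04), higher in DP day 6. The lower side was led by AT1G07400 (-5.22), PAP20 (-4.60), AT5G28237 (-4.53), AT1G28650 (-4.36) and AMY1 (-4.33).

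Probe sets with no gene in the annotation also responded. In a fit of all 26676 probe sets, with or without a gene, 12070 differed between DP day 6 and light. Of the 9909 probe sets with no gene, 5241 (52.9%) differed in that fit, 2305 higher and 2936 lower, and 2082 by at least 2-fold. Their largest rise was 7.16 and their largest fall -6.42 on the log2 scale, as measured, and whether either was dim in a group was not tested. The genes they measure are not named here.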

How the results depend on the processing

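The count of 6456 genes for DP day 6 against light stayed within 1.5 times under every alternative except a 2-fold minimum, which gave 2103, and all probe sets, which gave 12070 from a larger table. Without 1 array in turn it was 5758 to 6107. For DP day 6 against DP day 3, 738 genes became 316 at an adjusted p under 0.01, 71 with the 2-fold minimum and 1635 with all probe sets, and 420 to 602 without 1 array in turn. The lowest of these, 420 and 441, were without DP day 6 replicate 2 and without DP day 3 replicate 1. For DP day 6 against IDL day 6, 4699 genes became 1115 with the 2-fold minimum and 8852 with all probe sets, and 3963 to 4405 without 1 array in turn. The share of higher calls moved by over 10 percentage points in 2 cases. Against light 50.8% were higher, against 37.6% (791 higher and 1312 lower) with the 2-fold minimum. Against DP day 3 44.4% were higher, against 62.9% (448 higher and 264 lower) after centring on the 10 reference genes measured, of which 2 rose and 4 fell against light. That centring shifted the median of all genes in DP day 6 against light to 0.10.

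With the replicate block the 3 counts were 6471, 727 and 4750. In their deviations from the group means, same-numbered arrays correlated at -0.039 to 0.061 against DP day 3 and at 0.007 to 0.075 against IDL day 6. Differently numbered arrays correlated at -0.103 to 0.051 and at -0.071 to 0.019. Such weak values cannot show whether the numbers pair the arrays, and the numbers are not taken as pairs. Under the block the adjusted p of RR16 was 0.0562. Of 282 gene results, 261 kept their direction and their side of the threshold under every alternative run for single genes, 21 lost the call under at least 1, and none reversed. Those among the named genes are given with their values beside the result, or are APA1, AT1G62290, CYP78A9, EXPA25, GSTU16, PRA1.B6, SEC3B, UBP24, UBP25, UBP27, VPS2.1 and the reference genes AT2G28390, AT4G34270 and AT5G15710. Of 62 list counts 4 moved by over 1.5 times, in lipid breakdown, auxin, cytokinin and ER body genes. The cause of each change was not tested. Dim genes limit what can be seen: 6257 genes in DP day 6 and 6347 in light lay near or below the lower quartile, where a change is compressed.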

Other observations

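Genes next to each other in the genome were compared after their values had been seen, in the order of protein-coding genes of the RefSeq table. Of 10014 neighbouring pairs with both genes tested, both rose in 497 (4.96%), both fell in 439 (4.38%), and 1 rose and 1 fell in 737 (7.36%). The next gene was higher for 24.5% of the genes that rose, against 19.9% of all next genes, and lower for 23.6% of the genes that fell, against 18.8% of all. In 16 pairs both genes changed at least 4-fold the same way. These include AT3G15440 and AT3G15450, higher by at least 4.04 and by 5.08, AT1G19530 and AT1G19540, higher by at least 3.94 and by 4.99, AT1G76955 and AT1G76960, at -2.89 and -4.91, and COR15B and COR15A, at -2.53 and -3.09 (log2 difference, DP day 6 minus light). AT3G15440 and AT1G19530 were dim in light and COR15B was dim in DP day 6, so its fall was by at least that size. In 2 pairs both genes changed at least 4-fold in opposite directions, 1 of them PORB, at -2.91, beside AT4G27450, at 5.48. Whether a probe set also takes signal from its neighbour was not tested.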
